A study of Arabidopsis thaliana with 12 samples.

Results

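Expression of IVD, MCCA and SEN5, genes of leucine breakdown and of the response to sugar starvation, was followed through a day and night in Arabidopsis thaliana shoots. The genes were found by symbol in the array platform's annotation table, and SEN5, which has no symbol there, by its locus AT3G15450. Each is on 1 probe set, and all 3 were among the 14185 probe sets bright enough to test, of 22746 on the array without controls. The arrays come from the aerial part of 10-day-old Columbia wild-type seedlings, raised on agar with Murashige and Skoog salts and 1% sucrose, in days of 16 h light and 8 h dark, the light beginning at 6am. There are 4 groups of 3 arrays: 6am, as the light came on, 12pm and 6pm, both in the light, and 12am, in the dark. The CCA1-overexpressing seedlings named in the study's design were not analysed here. Nothing in the labels tells if the replicates are separate cultures, and the p-values therefore reflect the spread among these arrays alone, which may be technical.

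Plants break down leucine in mitochondria. An aminotransferase and a dehydrogenase complex turn it into isovaleryl-CoA, which isovaleryl-CoA dehydrogenase (IVD, AT3G45300) oxidises, passing electrons through the electron-transfer flavoprotein and its ubiquinone oxidoreductase into the respiratory chain. The product goes to 3-methylcrotonyl-CoA carboxylase, whose biotin-carrying alpha subunit is MCCA (AT1G03090) and whose beta subunit is MCCB. SEN5 is a senescence-associated gene, and all 3 genes are known to rise in leaves kept in prolonged darkness or short of sugar, when protein and amino acids are used as fuel. The comparison asks how these transcripts run through an ordinary light and dark cycle in shoots that also have sucrose in the medium.

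Replicate 1 arrays stood apart from the others: r with replicates 2 and 3 of the same time was 0.967 to 0.984, while replicates 2 and 3 reached 0.986 to 0.997 with each other. The excess of a control's 3' probe set over its 5' one reads RNA integrity. For actin this gap was 5.08 to 6.49 log2 with replicate 1, against 4.38 to 5.09 with replicates 2 and 3. GAPDH had 2.02 to 2.33 with replicate 1, against 1.77 to 2.19 with replicates 2 and 3. Ubiquitin had 3.13 to 3.47 with replicate 1, against 2.90 to 3.47 with replicates 2 and 3. The ranges of replicate 1 thus overlapped the others for every control, though barely for actin. The 6 tested of 11 shoot markers, photosynthesis genes, were at 7.10 to 14.6 log2 on every array. Of 11 root markers, only 2 were on a probe set naming 1 gene. PYK10 was tested, at 11.2 to 12.1 log2 (adjusted p = 0.207 by limma's F-test), and EXPA7 was at the floor of 2.1 throughout. The others could not be read, so these markers do not show whether root tissue was absent. Results are also given for replicates 2 and 3 alone. All values below are log2 expression as deposited, and levels of different probe sets cannot be set against each other. In shoots made of many cell types, fewer cells expressing a gene and less RNA per cell cannot be told apart.

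IVD was highest at 6am, at the end of the night, and lower at each later harvest in the light. It had 11.46, 10.73 and 10.76 at 6am on replicates 1, 2 and 3. At 12pm it had 10.55, 9.68 and 9.96, and at 6pm 9.65, 9.43 and 9.58. At 12am it had 10.82, 9.23 and 9.37. Every 6am array lay above every 12pm array, and every 12pm array above every 6pm array, while at 12am replicate 1 lay among the 6am arrays and replicates 2 and 3 lay below every other array. The means were 10.98 ± 0.41 at 6am, 10.06 ± 0.44 at 12pm, 9.55 ± 0.11 at 6pm and 9.81 ± 0.88 at 12am (SD, n = 3 each).

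The 4 means of IVD differed by limma's moderated F-test (adjusted p = 0.0353, called below 0.05), as did those of 46.8% of all tested probe sets. IVD fell by 1.43 ± 0.38 on the log2 scale (SE) at 6pm relative to 6am, 2.69-fold, with an adjusted p of 0.0133 by limma. At 12am it was lower than at 6am by 2.26-fold (difference -1.18 ± 0.38, adjusted p = 0.0442), where 11.2% of all tested probe sets were called lower. That call was kept without 12pm replicate 1 (0.0430) or 12am replicate 1 (0.00112) and lost without any other single array (0.0513 to 0.175). The difference between 12pm and 6am was -0.92 ± 0.38 (adjusted p = 0.0834), and no pair among 12pm, 6pm and 12am was called. From high to low, the order was therefore 6am, 12pm, 12am and 6pm, and no neighbours in that order passed the test. The F-test call was lost on leaving out 8 of the 12 arrays in turn: 6am replicates 1, 2 and 3 (adjusted p of 0.128, 0.0612 and 0.0663), 12pm replicate 3 (0.0564), 6pm replicates 1, 2 and 3 (0.0545, 0.0680 and 0.0656) and 12am replicate 3 (0.0514). The lower level at 6pm was called on leaving out any 1 array, with adjusted p from 0.00106 to 0.0479, and not without the filter on dim probe sets (0.0522).

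MCCA followed the same order through the light period. It had 12.95, 12.49 and 12.47 at 6am on replicates 1, 2 and 3. At 12pm it had 12.23, 11.64 and 11.77, and at 6pm 11.41, 11.28 and 11.62. At 12am it had 12.66, 10.89 and 10.93. As for IVD, the 6am, 12pm and 6pm arrays did not overlap and fell in that order, a pattern found in 425 of the 14185 tested probe sets (3.00%). Replicate 1 at 12am lay among the 6am arrays, and replicates 2 and 3 at 12am lay below every other array. The means were 12.64 ± 0.27 at 6am, 11.88 ± 0.31 at 12pm, 11.44 ± 0.17 at 6pm and 11.49 ± 1.01 at 12am (SD, n = 3 each).

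Over all 12 arrays the 4 means of MCCA were not called different (limma's F-test, adjusted p = 0.0696). The level at 6pm was lower than at 6am by 1.20 ± 0.39 (SE), 2.3-fold, with an adjusted p of 0.0343 by limma, a call lost on leaving out any of the 6 arrays of these times (0.0596 to 0.0964). In this comparison 15.7% of all tested probe sets were called lower. The level at 12am was lower than at 6am by 2.21-fold, with a difference of -1.14 ± 0.39 (adjusted p = 0.0536). At 12pm the difference from 6am was -0.76 ± 0.39 (adjusted p = 0.160). From high to low the order of means was 6am, 12pm, 12am and 6pm, as for IVD, and again no neighbours passed the test.

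SEN5 showed no call over the 12 arrays, and its replicates ran differently. It had 9.38, 9.87 and 10.11 at 6am on replicates 1, 2 and 3. At 12pm it had 10.24, 9.84 and 9.64, and at 6pm 10.17, 9.17 and 8.46. At 12am it had 10.34, 8.84 and 8.46. On replicate 1 the 6am array was the lowest, and on replicates 2 and 3 the 6pm and 12am arrays were below the 6am and 12pm ones. All 6 pairs of times overlapped. The means were 9.79 ± 0.37 at 6am, 9.91 ± 0.30 at 12pm, 9.27 ± 0.86 at 6pm and 9.22 ± 0.99 at 12am (SD, n = 3 each), and the adjusted p of limma's F-test was 0.481. The widest gap between means, 12am minus 12pm, was -0.69 ± 0.49 (SE, adjusted p = 0.326). No neighbours in the order 12pm, 6am, 6pm and 12am passed the test.

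**Figure D1:**
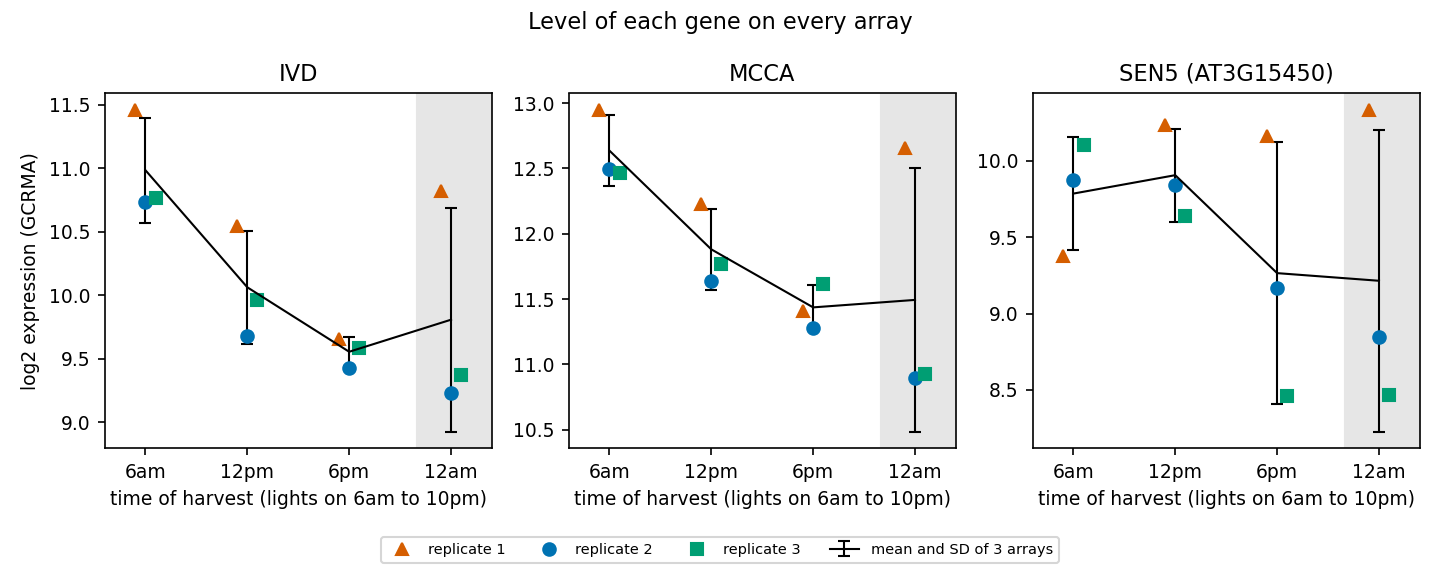
Level of IVD, MCCA and SEN5 (log2 expression, each panel with its own axis) at the 4 harvest times, with each array as a point shaped and coloured by replicate number, and the line and bars giving the mean and SD of 3 arrays. The shaded part is the dark period. IVD and MCCA step down between 6am, 12pm and 6pm on all replicates, and at 12am replicate 1 lies far above replicates 2 and 3 in all 3 panels.

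The 12am arrays divided in the same way for all 3 genes. Replicate 1 at 12am exceeded the mean of replicates 2 and 3 by 1.52 for IVD, 1.75 for MCCA and 1.68 for SEN5 on the log2 scale. The median size of this gap over all tested probe sets was 0.245, and 1.74%, 1.24% and 1.36% of probe sets had a larger one than IVD, MCCA and SEN5. SEN5 had a gap of 1.35 at 6pm as well, where IVD and MCCA had 0.15 and -0.04. Over all tested probe sets, replicate 1 at 12am correlated at 0.973 and 0.970 with the other 12am arrays and at 0.941 to 0.953 with the 6am arrays, closest to its own time as a whole. Its actin 3' to 5' gap was 5.08, the lowest of the replicate 1 arrays, against 4.75 and 5.09 on 12am replicates 2 and 3. For GAPDH the gap was 2.02 on 12am replicate 1 and 1.98 and 2.19 on replicates 2 and 3. For ubiquitin it was 3.47 on 12am replicate 1 and 3.47 and 3.21 on replicates 2 and 3. The part that RNA integrity had in the gap of the 3 genes was not tested.

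Without 12am replicate 1 the spread of IVD and MCCA over the remaining 11 arrays was smaller, and both F-tests were called by limma (adjusted p = 0.00127 and 0.000293), beside 49.0% of all tested probe sets. That array was picked out after its values were seen, so the smaller spread and lower 12am means follow from leaving it out. The fall at 12am relative to 6am was then 1.68 ± 0.27 for IVD, 3.21-fold, with an adjusted p of 0.00112. For MCCA it was 1.73 ± 0.21, 3.31-fold, with an adjusted p of 0.000172, and 13.2% of all tested probe sets were called lower. MCCA was then also lower at 12am than at 12pm by 1.96-fold (adjusted p = 0.00589), as were 14.1% of all. The lower levels at 12pm than at 6am were called for both genes (adjusted p = 0.0128 for IVD and 0.00944 for MCCA), where 36.0% of all probe sets were called in either direction. For SEN5 the F-test was still not called (adjusted p = 0.0818), and its level at 12am was lower than at 12pm by 2.38-fold (adjusted p = 0.0450).

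With replicates 2 and 3 alone, 8 arrays in all, the 3 genes were called by limma's F-test with adjusted p of 0.000235 for IVD, 0.000222 for MCCA and 0.00361 for SEN5. That F-test called 58.4% of all tested probe sets. On these arrays the means of IVD were 10.74, 9.82, 9.51 and 9.30 from 6am to 12am in order of harvest. Those of MCCA were 12.48, 11.71, 11.45 and 10.91, and those of SEN5 were 9.99, 9.74, 8.81 and 8.65. All 3 genes were thus highest at 6am and lowest at 12am. The falls at 12am relative to 6am were 2.73-fold for IVD, 2.97-fold for MCCA and 2.52-fold for SEN5, with adjusted p of 0.000134, 9.4e-05 and 0.00345 by limma, beside 17.8% of all tested probe sets. MCCA was also lower at 12am than at 6pm, with a difference of -0.54 ± 0.14 (SE, adjusted p = 0.0233, 14.1% of all called lower), whereas for IVD and SEN5 the same differences were -0.21 and -0.16 and not called.

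The 2 harvests at the end of or within the dark, 6am and 12am, were also set against the 2 within the light. The mean of the night arrays minus that of the day arrays was 0.59 ± 0.27 for IVD (SE, adjusted p = 0.109), 0.41 ± 0.28 for MCCA (0.275) and -0.09 ± 0.34 for SEN5 (0.875), by limma. This contrast called 37.7% of all tested probe sets, 18.4% higher and 19.3% lower at night. On replicates 2 and 3 alone the contrast was 0.36 ± 0.10 for IVD (adjusted p = 0.0183, 21.9% of all called higher), 0.12 ± 0.10 for MCCA (0.371) and 0.04 ± 0.17 for SEN5 (0.853). The contrast averages 2 unlike times: on these replicates IVD had its highest mean at 6am (10.74) and its lowest at 12am (9.30), the harvest within the dark.

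**Figure D2:**
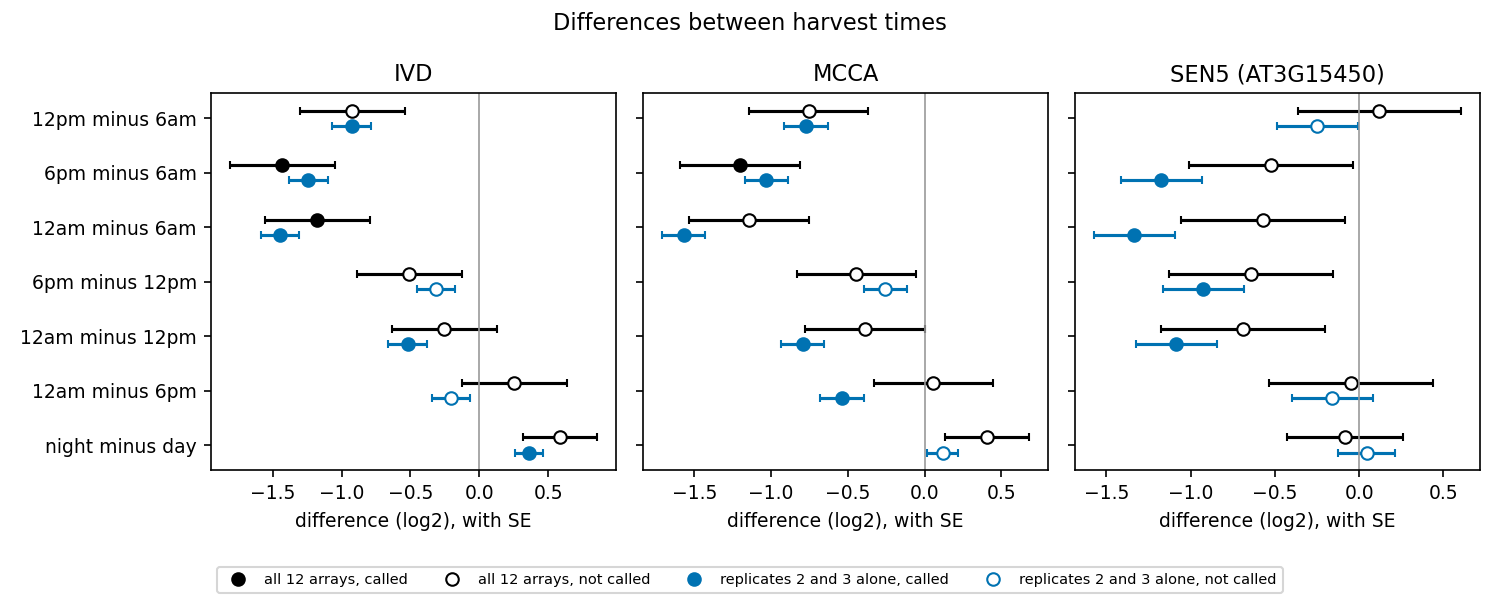
Differences in log2 expression between harvest times for IVD, MCCA and SEN5, with the standard error of the model as bars, for all 12 arrays (black) and for replicates 2 and 3 alone (blue). Filled points had an adjusted p below 0.05 by limma over all tested probe sets. With all arrays 3 differences are filled, 2 of IVD and 1 of MCCA, and the bars are wider than with replicates 2 and 3 alone.

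IVD and MCCA moved together from array to array. Their Pearson correlation over the 12 arrays was 0.977 and their Spearman correlation 0.986, and Pearson's r was 0.969 without 6am replicate 1 and 12am replicate 1, the 2 arrays farthest from the median of IVD. The arrays share 4 harvest times and a common normalization, so these values describe the profile. After each time's mean was taken off, the deviations of the 2 genes still correlated at 0.966 over 12 arrays, and at 0.706 over the 8 arrays of replicates 2 and 3. The 12-array value leans on 12am replicate 1, 1.52 (IVD) and 1.75 (MCCA) above the other 12am arrays. It was not repeated without that array. SEN5 correlated with IVD at 0.561 (Spearman 0.643) and with MCCA at 0.601 (Spearman 0.573). Its deviations from the time means correlated with those of IVD and MCCA at 0.561 and 0.573 over the 12 arrays. Over replicates 2 and 3 alone the correlations of SEN5 values with IVD and MCCA were 0.780 and 0.782. The deviations there ran the other way (-0.691 and -0.905). With 2 arrays per time, the deviations at a time are equal and opposite. The 8-array correlations of deviations, 0.706 included, thus rest on only 4 independent values.

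The difference of 2 genes' log2 values on the same array shows whether their profiles part, and 3 pairs were compared. IVD minus MCCA was -1.65 ± 0.14, -1.82 ± 0.14, -1.88 ± 0.14 and -1.69 ± 0.14 (SD, n = 3 each) from 6am to 12am, so the gap moved by little beside the changes of either gene. The profiles of the 2 were not called different by an exact permutation test of the F statistic over all 369600 arrangements (p = 0.242, adjusted over 3 pairs 0.364). SEN5 minus IVD was -1.20 ± 0.77, -0.16 ± 0.28, -0.29 ± 0.82 and -0.59 ± 0.28 at the 4 times (exact permutation p = 0.218, adjusted 0.364). For SEN5 minus MCCA the exact permutation p was 0.376 (adjusted 0.376). Between night and day arrays, IVD minus MCCA was 0.18 higher at night (two-sided exact permutation test over 924 arrangements, p = 0.0433, adjusted 0.101). SEN5 minus IVD was lower at night by -0.67 (exact permutation p = 0.0671, adjusted 0.101) and SEN5 minus MCCA by -0.49 (p = 0.184, adjusted 0.184), on the log2 scale. These last 2 differences depended on single arrays. Without 6pm replicate 3 they were -0.85 and -0.71, each with an adjusted exact permutation p of 0.0130. Without 6am replicate 1 they were -0.44 and -0.29 (adjusted exact permutation p of 0.205 and 0.368), and SEN5 minus MCCA was -0.33 without 6pm replicate 1 (0.355). With replicates 2 and 3 alone they were -0.32 and -0.07 (adjusted exact permutation p of 0.471 and 0.857).

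**Figure D3:**
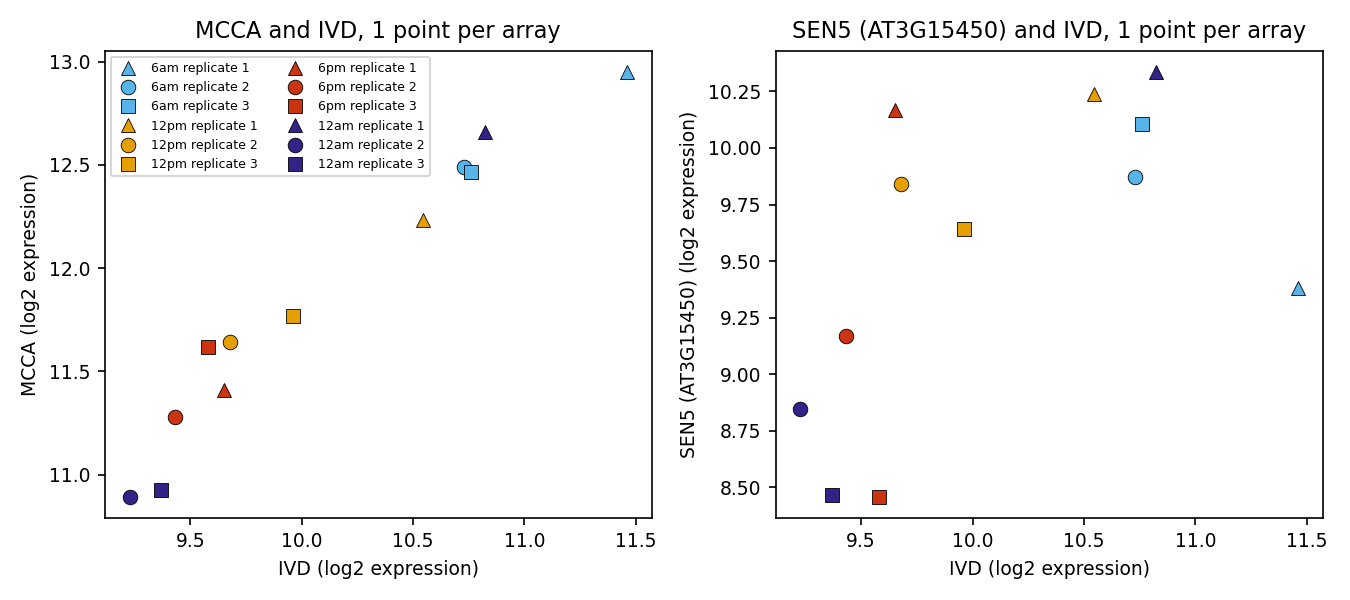
Log2 expression of MCCA (left) and SEN5 (right) against IVD, with 1 point per array, coloured by harvest time and shaped by replicate. The MCCA points lie along a line, with 12am replicate 1 beside the 6am arrays, and the SEN5 points scatter more widely, with replicate 1 of 12pm, 6pm and 12am at the top.

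Of 21 genes listed for the breakdown of leucine and the other branched-chain amino acids, 12 were on a probe set naming 1 gene, and all 12 were tested. They did not all run the same way. By limma's F-test 6 differed between the times, IVD among them, against 46.8% of all tested probe sets. At 6pm relative to 6am, 3 were lower (IVD, MCCA and AT2G26800), 4 were higher and 5 were not called. In that comparison 32.4% of all tested probe sets were called, 16.7% higher and 15.7% lower. The median difference of the list was 0.18, and over all tested probe sets it was 0.01. The median range of the 4 means was 0.62 for the list and 0.64 over all tested probe sets. The F-test called 4 to 9 of the 12 when single arrays were left out, and 10 with replicates 2 and 3 alone.

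AT2G26800, a breakdown gene for which the tables used here give no symbol, fell with IVD and MCCA. It had 9.93, 10.04 and 10.15 at 6am, 9.32, 9.68 and 9.90 at 12pm, 8.32, 8.13 and 8.18 at 6pm, and 8.86, 8.60 and 8.51 at 12am. Its 6am arrays lay above all others, and at 12am replicate 1 was 0.30 above the mean of replicates 2 and 3. It fell by 1.83 ± 0.16 at 6pm relative to 6am (SE), 3.56-fold, and was 2.61-fold lower at 12am than at 6am (limma, adjusted p = 0.000102).

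ETFQO, the oxidoreductase that passes the electrons from IVD on to ubiquinone, had a profile close to that of MCCA. It had 7.68, 6.90 and 7.11 at 6am, 6.43, 6.18 and 6.23 at 12pm, 6.44, 6.35 and 6.23 at 6pm, and 7.16, 5.63 and 5.35 at 12am. The 6am arrays lay above those of 12pm and 6pm, and 12am replicate 1 again stood apart, by 1.67 above the mean of the other 12am arrays. ETFQO was not called by limma's F-test over 12 arrays (adjusted p = 0.0782), and was lower at 12am than at 6am by 2.28-fold (adjusted p = 0.0410). Without 12am replicate 1 its F-test had an adjusted p of 0.000426. MCCB, the partner subunit of MCCA, had means of 11.42 ± 0.19, 11.24 ± 0.22, 11.22 ± 0.27 and 10.97 ± 0.41 at the 4 times (SD, n = 3 each, adjusted p = 0.363 by limma's F-test). Its 12am replicate 1 was 0.71 above the others, and whether MCCA and MCCB differ in profile was not tested.

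The breakdown genes that rose at 6pm relative to 6am included both subunits of the electron-transfer flavoprotein, which takes electrons from IVD. ETFALPHA rose by 0.46 ± 0.11 (SE), 1.38-fold, with an adjusted p of 0.00884 by limma. It had 9.46, 9.32 and 9.31 at 6am and 10.00, 9.82 and 9.90 at 12pm, and 9.19 to 9.41 at 12am. ETFBETA rose by 0.64 ± 0.15, 1.55-fold (adjusted p = 0.00595 by limma), with means of 9.46 ± 0.26 at 6pm and 8.82 ± 0.09 at 6am (SD, n = 3 each), and its F-test call was lost without 6am replicate 2 (0.0508). AT5G09300 rose most, by 1.99 ± 0.35 or 3.97-fold (adjusted p = 0.00107 by limma). It had 9.10, 8.26 and 8.65 at 6pm, against 7.47, 6.42 and 6.16 at 6am, with no overlap. AT4G20930 rose 1.48-fold (adjusted p = 0.0137 by limma). These 4 genes were also lower on night than on day arrays, as were 19.3% of all tested probe sets. AT5G09300 was not low within the dark: its mean was 8.19 at 12am, 7.85 at 12pm and 6.68 at 6am. AT2G26800 was the 1 gene of the 12 called higher at night, as were 18.4% of all. Its 6am arrays were its highest, while its 12am arrays (8.51 to 8.86) lay below its 12pm arrays (9.32 to 9.90).

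The remaining breakdown genes were not called over the 12 arrays. ALDH6B2, an aldehyde dehydrogenase of valine breakdown, had means of 9.23, 9.32, 9.40 and 8.87 from 6am to 12am (adjusted p = 0.281 by limma's F-test). Its 12am replicate 1 lay 0.95 above the other 12am arrays, and the adjusted p was 0.0142 without it and 0.00893 with replicates 2 and 3 alone. AT4G31810 and AT4G16800 had ranges of means of 0.43 and 0.25, and AT4G31810 was called on replicates 2 and 3 alone (0.0394), and on leaving out 6am replicate 1 (0.0408).

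**Figure D4:**
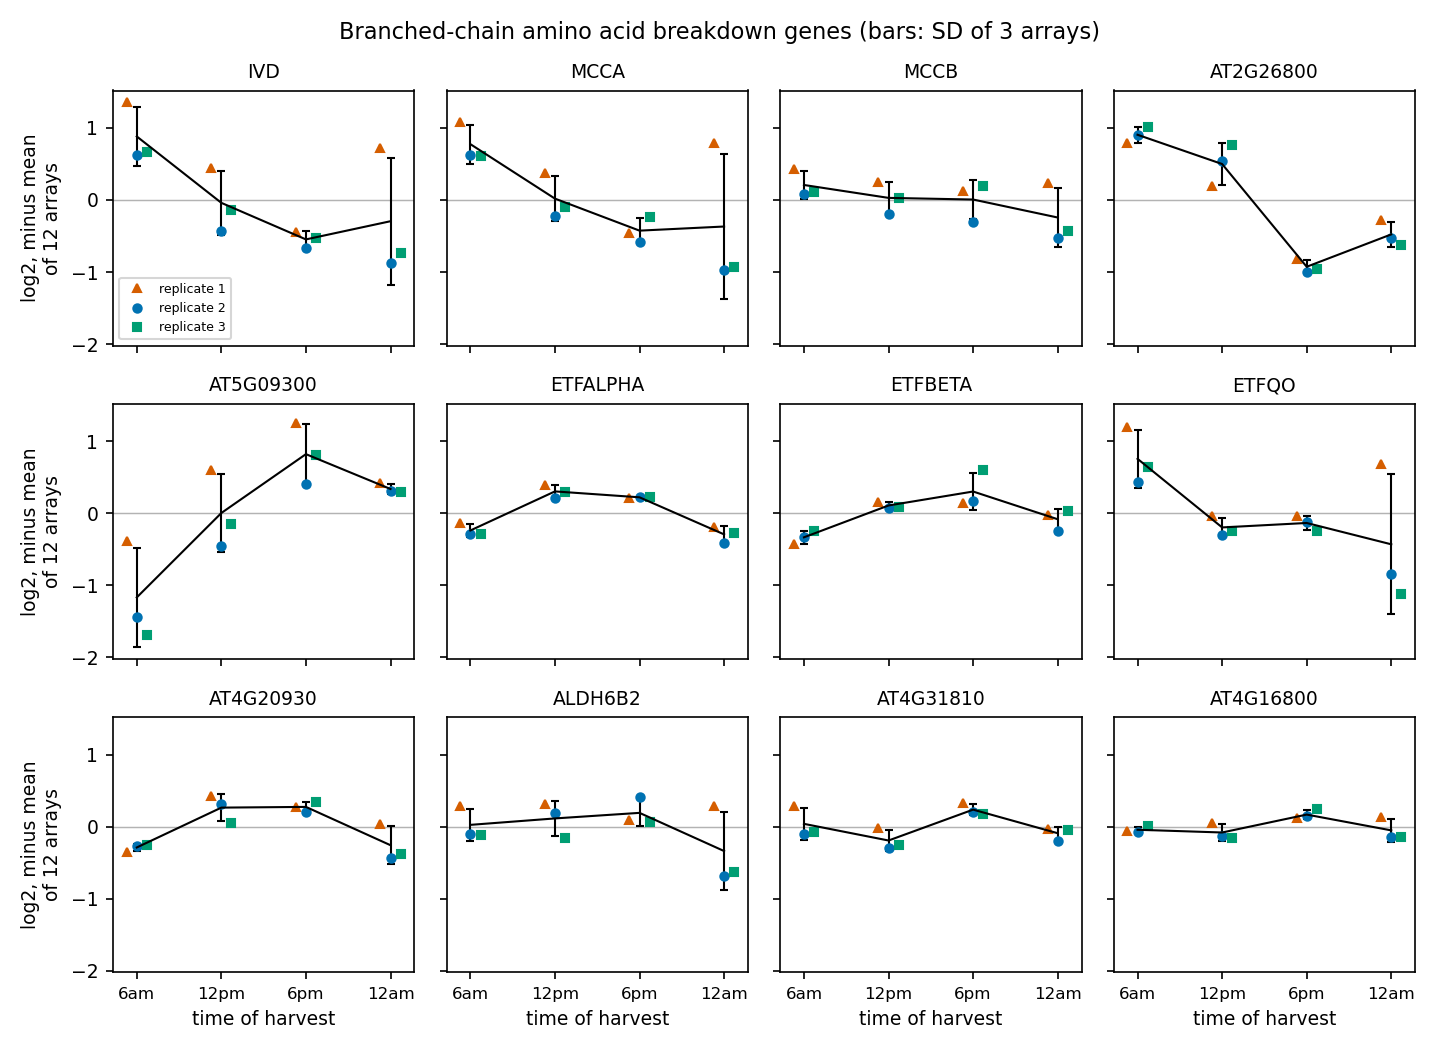
Profiles of the 12 tested breakdown genes, each as log2 expression minus its own mean over the 12 arrays, with points for single arrays by replicate, and the line and bars for the mean and SD of 3 arrays. IVD, MCCA, ETFQO, AT2G26800 and, over a smaller range, MCCB have their highest mean at 6am. AT5G09300, ETFBETA, ETFALPHA and AT4G20930 are higher at 6pm than at 6am. In IVD, MCCA, MCCB, ETFQO and ALDH6B2, 12am replicate 1 stands farthest above the other 12am arrays.

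Of 28 listed genes known to rise in darkness or sugar starvation, 5 were on a probe set naming 1 gene, and 4 were tested: IVD, MCCA, SEN5 and AKINBETA1. AKINBETA1 encodes a beta subunit of SnRK1, the kinase that senses low energy. It had 11.59, 11.60 and 11.74 at 6am, 10.49, 10.06 and 10.22 at 12pm, 9.69, 9.58 and 9.67 at 6pm, and 11.45, 10.64 and 10.64 at 12am. Its arrays did not overlap between any 2 times, and unlike IVD and MCCA it had every 12am array above every 12pm and 6pm array. AKINBETA1 fell by 2.00 ± 0.20 at 6pm relative to 6am (SE), 3.99-fold, and was 2.50-fold higher on night than on day arrays (adjusted p = 2.9e-05 by limma). In all, 3 of the 4 genes were called lower at 6pm than at 6am, as were 15.7% of all tested probe sets, and 1, AKINBETA1, was called higher at night, as were 18.4% of all. The list's median difference at 6pm was -1.32, against 0.01 for all tested probe sets, and the list was chosen with these values known. ATL8, the fifth gene, was too dim to test.

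Of 11 listed genes for SnRK1 subunits and related bZIP factors, 4 were on a probe set naming 1 gene, and all 4 were tested. AKINBETA1 was the 1 called by limma's F-test, against 46.8% of all tested probe sets. The subunits KINbeta2 (AT4G16360) and KINbeta3 (AT2G28060) and the transcription factor BZIP53 had ranges of means of 0.20, 0.35 and 0.28, with adjusted p of 0.843, 0.392 and 0.455.

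All 5 genes listed as SEN5 and its relatives were tested, and limma's F-test called 4 of them, with SEN5 as the exception, against 46.8% of all tested probe sets. Without the filter on dim probe sets it called 2, beside 5891 of all 22746 probe sets. The F-test calls of AILP1 (0.103) and AT3G22850 (0.107) were then lost. AT4G27450 had the widest range of means, 2.12. It had 9.97, 10.78 and 10.72 at 6am, 11.14, 11.04 and 10.93 at 12pm, 9.09, 8.83 and 8.83 at 6pm, and 10.08, 8.85 and 8.66 at 12am. It was thus high at 6am and 12pm and low at 6pm, as SEN5 was on replicates 2 and 3, and its 12am replicate 1 stood 1.33 above the others. AT4G27450 fell by 1.57 ± 0.33 at 6pm relative to 6am (SE), 2.98-fold, with an adjusted p of 0.00318 by limma. The other 3 were lowest at 6am and highest at 12pm. AILP1 had means of 12.91 ± 0.08 at 12pm and 11.86 ± 0.54 at 6am (SD, n = 3 each). AT5G43830 had 11.49 ± 0.07 at 12pm and 10.63 ± 0.41 at 6am, and AT3G22850 had 6.76 ± 0.34 at 12pm and 5.82 ± 0.30 at 6am (SD, n = 3 each). The F-test calls of AILP1 (adjusted p = 0.0337) and AT3G22850 (0.0351) were lost without single arrays. For AILP1 these were 12pm replicates 1, 2 and 3 (0.0707, 0.0829 and 0.101) and 12am replicate 3 (0.0529). For AT3G22850 they were 6am replicates 1 and 2 (0.137 and 0.0994), 12pm replicates 2 and 3 (0.0680 and 0.0658) and 6pm replicates 2 and 3 (0.0544 and 0.0586).

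Of 16 genes listed for the breakdown of other amino acids, 5 were on a probe set naming 1 gene and 4 were tested. By limma's F-test 2 were called, a share near the 46.8% of all tested probe sets. Both had their highest means in the light. MGL, methionine gamma-lyase, had 7.97, 7.96 and 8.03 at 6am, 8.91, 8.90 and 9.08 at 12pm, 8.38, 8.08 and 8.32 at 6pm, and 7.87, 6.49 and 6.69 at 12am. It was lower on night than on day arrays by 2.16-fold (adjusted p = 0.000986 by limma), and its 12am replicate 1 was 1.28 above the others. D2HGDH, D-2-hydroxyglutarate dehydrogenase, was lower at night by 1.66-fold (adjusted p = 0.000483 by limma). LKR/SDH (AT4G33150), the bifunctional enzyme of lysine breakdown, was not called (range of means 0.32, adjusted p = 0.628), nor was AT5G36160 over 12 arrays (0.272, and 0.0283 without 12am replicate 1).

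Of 17 listed genes for the synthesis of branched-chain amino acids, 4 were on a probe set naming 1 gene, and all 4 were tested. By limma's F-test 2 were called, again a share near the 46.8% of all. AT2G31810 was at 8.95 ± 0.07 at 6am, 7.07 ± 0.30 at 12pm, 7.53 ± 0.09 at 6pm and 8.30 ± 0.52 at 12am (SD, n = 3 each), and was 2.51-fold higher on night than on day arrays (adjusted p = 7e-05 by limma). AT3G23940 had a range of means of 0.57 (adjusted p = 0.0276). It was no longer called on leaving out 12pm replicate 1, 2 or 3 (0.0528, 0.0990 and 0.0670) or 6pm replicate 1 or 3 (0.0706 and 0.0581). The aminotransferase gene ATBCAT-5 and AT3G58610 were not called (0.360 and 0.552).

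Among all 14184 other tested probe sets, named or not, MCCA had the highest correlation with IVD over the 12 arrays, and IVD the highest with MCCA. On replicates 2 and 3 alone, with 8 arrays, MCCA ranked 30th for IVD and IVD 14th for MCCA. The next named genes most like IVD were AGL65, a MADS-box factor gene (r = 0.965), AT5G58720 (0.956), AT5G08340 (0.947) and AT1G67580 (0.946). For MCCA they were AT5G58720 (0.932), ETFQO (0.931), AT5G16120 (0.929) and AGL65 (0.928). AGL65 had means of 6.49 ± 0.38, 5.42 ± 0.17, 5.21 ± 0.21 and 5.41 ± 0.64 at the 4 times (SD, n = 3 each). The genes most opposite were AT3G06035 (-0.983) and AT1G53070 (-0.948) for IVD, and AT4G12490 (-0.968) and AT3G06035 (-0.942) for MCCA. AT3G06035 averaged 8.22 ± 0.25 at 6pm and 6.84 ± 0.32 at 6am (SD, n = 3 each).

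SEN5 ranked 2294th in likeness to IVD and 1674th in likeness to MCCA. The genes most like SEN5 were AT4G26290 (r = 0.874), AT2G20670 (0.850), AT4G28300 (0.827), SLOMO (0.824) and AT5G19120 (0.823). On replicates 2 and 3 alone their r was 0.883, 0.920, 0.915, 0.834 and 0.832, and they ranked 262nd, 117th, 136th, 506th and 522nd. AT2G20670 showed the same division of replicates on a larger scale, with 9.82, 10.55 and 10.51 at 6am, 11.38, 11.41 and 11.22 at 12pm, 9.96, 7.95 and 7.36 at 6pm, and 9.71, 6.93 and 6.49 at 12am. Its replicate 1 stood 2.31 above the others at 6pm and 2.99 above them at 12am. SLOMO had a range of means of only 0.13, so its likeness rests on small deviations, and AT4G26290 had means of 3.12 to 4.39, near the dim end. The most opposite were AT1G73230 (-0.920) and AT4G22610 (-0.908). They share these limits: AT1G73230 had a range of means of 0.13, and AT4G22610 had means of 3.46 to 4.32.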

How the data were processed

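RNA from 12 samples was labelled and read on Affymetrix arrays with 1 colour. The authors deposited log2 values per probe set from GCRMA (sequence-based background correction, normalization across arrays, probe summary). Per the submitters' processing notes, the authors used affy 1.42.3 in R 3.1. They have no read depth, and the number of arrays limits the precision. Their floor was 2.1, and 29.3% of values were at most 0.1 above it.

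Names were taken from the platform's table and RefSeq. Of 22746 probe sets without the 64 controls, 13513 name 1 gene. No coordinates are given, since the files state no build. Probe sets with a log2 of at least 4 on 3 or more of the 12 arrays were tested, which left out 8561.

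limma 3.58.1 (R 4.3.3) fitted time as a factor of 4 levels, without covariates, with eBayes (8 residual plus 3.44 prior degrees of freedom). The F-test, all 6 differences of times, and night (12am and 6am) minus day (12pm and 6pm) were two-sided where signed. Benjamini-Hochberg adjustment ran over the 14185 tested probe sets, separately for every test, with calls below 0.05. Pairs of genes were compared by exact permutation of arrays. The fit was tested on simulated data.

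The members, gene lists and tests were chosen with earlier results of these data known, and list counts are descriptions. Text names follow a rule: the 3 genes in full, tested list members (values if called by the F-test, otherwise ranges), and for each of the 3 genes the 5 named genes of highest and 2 of lowest Pearson correlation. Values of MCCB, ETFQO and ALDH6B2, which the F-test did not call, and the emphasis on 12am replicate 1 were chosen after values were seen. Alternatives were no filter, a log2 of 5 on 6 arrays, a replicate block, replicates 2 and 3 alone, an intensity trend, quantile normalization, only the 6 arrays of 2 times, and each array left out.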

Additional observations from a re-analysis of the deposited data

How the results depend on the processing

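With 3 arrays per time, 1 array moves many calls, and adjusted p-values are given here throughout, from limma unless named as permutation. Leaving out single arrays gave, for IVD, 0.00127 to 0.128 for the F-test, 0.0128 to 0.244 for 12pm minus 6am, 0.00112 to 0.175 for 12am minus 6am, 0.0595 to 0.987 for 12am minus 12pm and 0.442 to 0.818 for 12am minus 6pm. For MCCA it gave 0.000293 to 0.197 for the F-test, 0.00944 to 0.337 for 12pm minus 6am, 0.000612 to 0.0964 for 6pm minus 6am, 0.000172 to 0.207 for 12am minus 6am, 0.00589 to 0.920 for 12am minus 12pm and 0.109 to 0.983 for 12am minus 6pm. For SEN5 it gave 0.746 to 0.963 for 12pm minus 6am, 0.0450 to 0.722 for 12am minus 12pm, 0.354 to 0.964 for 12am minus 6pm and 0.336 to 0.997 for night minus day. The differences whose sign turned were 12am minus 12pm of IVD (without 12am replicate 2), 12am minus 6pm of all 3 genes, and 12pm minus 6am and night minus day of SEN5, and none of these was called with any single array left out. SEN5 minus IVD and SEN5 minus MCCA between night and day had permutation values of 0.0130 to 0.224 and 0.0130 to 0.368.

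With replicates 2 and 3 alone IVD had 0.00118 for 12pm minus 6am, 0.0199 for 12am minus 12pm, 0.0183 for night minus day and, with the sign turned, 0.321 for 12am minus 6pm. MCCA had 0.000222 for the F-test, 0.00311 for 12pm minus 6am, 9.4e-05 for 12am minus 6am, 0.00299 for 12am minus 12pm and, turned, 0.0233 for 12am minus 6pm. SEN5 had 0.00361 for the F-test, 0.00535 for 6pm minus 6am, 0.00345 for 12am minus 6am, 0.0292 for 6pm minus 12pm, 0.00834 for 12am minus 12pm and, turned, 0.444 for 12pm minus 6am and 0.853 for night minus day. Without the filter IVD had 0.124 for the F-test, 0.0522 for 6pm minus 6am and 0.125 for 12am minus 6am, and MCCA had 0.106 for 6pm minus 6am, with 22746 probe sets in the adjustment. Quantile normalization gave IVD 0.0534 for 12am minus 6am, and an intensity trend gave MCCA 0.0434. With only the 6 arrays of the 2 times, 12pm minus 6am had 0.0445 for IVD and 0.0314 for MCCA, and 12am minus 6am of IVD had 0.119. The cause of these shifts was not tested.

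Same-numbered arrays deviated together from their time means in 17 of 18 pairs (r over 0.1, from 0.0554 to 0.649), and 10 of 12 arrays correlated best with their own number at every other time, which is a hint from the data that numbers tie arrays together. The labels name no shared culture, batch or day for a number, and 1 pair was not over 0.1, so the model without the block is the one reported. With the replicate block IVD had 0.00844 for 12pm minus 6am and 0.0131 for night minus day, and MCCA had 0.0176 for the F-test and 0.0142 for 12am minus 6am. The F-tests of ETFQO (0.0175) and AT4G31810 (0.0221) were also called with it. The block called 5111 probe sets for 12am minus 6am against 3363 without it, 3303 against 2024 for 6pm minus 12pm and 4313 against 2826 for 12am minus 6pm. Replicates 2 and 3 alone also called 5111 for 12am minus 6am. Leaving out 12am replicate 2 or 3 called 2126 or 2174 there, and leaving out 12pm replicate 2 or 3 called 1313 or 1340 for 6pm minus 12pm.

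With replicates 2 and 3 alone the F-test called 58.4% of all tested probe sets, against 46.8% with all arrays. Of the lists, it then called 10 of 12 breakdown genes against 6, 1 synthesis gene against 2, and 4 sugar-starvation genes against 2. Without the filter it called 1 sugar-starvation gene and 2 SEN5 relatives (4 with it), and 1 breakdown gene was lower at 6pm than at 6am against 3. Of all 22746 probe sets, the F-test called 5891 without the filter, and 1982 were called lower at 6pm than at 6am. At night 2 breakdown genes were higher with the block or with replicates 2 and 3 alone, against 1. Single arrays left out gave 1 to 2 synthesis genes, 1 to 3 sugar-starvation genes and 2 to 4 SEN5 relatives. For single list genes, 640 of the repeats changed neither call nor sign, 27 lost a call and 10 gained one.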
